A study of Danio rerio with 20 samples.

Results

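Ventricular apexes of zebrafish hearts at 14 days post cryoinjury (14 dpci) were compared with apexes of non-injured hearts (no ci) by RNA sequencing. The comparison takes the 8 libraries whose labels name these stages, 4 of 14 dpci and 4 without cryoinjury, out of 20 libraries in the series; the other 12 are the 1.5, 3 and 7 dpci libraries, 4 each. All fish of both groups were labelled wild type and no compound or transgene is named for these samples. Per the study's methods, cryoinjury was done on male and female fish of 5 to 12 months, and each library was made from 3 to 4 apexes frozen in a single tube. Every library is therefore a pool, and differences between single hearts were averaged before sequencing. The injured apex holds wound tissue together with the muscle around it, so that fewer cells of a type and less RNA per cell cannot be told apart in any value given here.

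Cryoinjury freezes a patch of the ventricle wall and kills the cells in it. In zebrafish, inflammatory cells then clear the dead tissue, a matrix rich in fibrin and later in collagen fills the wound, an epicardial sheet closes over it, and heart muscle cells next to the wound divide and replace the lost muscle. In this sequence the 14 dpci stage comes after the main inflammatory phase, when scar matrix and new muscle are present side by side. Comparing it with non-injured apexes asks which transcripts still stood away from the non-injured level at that stage.

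The measurements are given by assembled locus (XLOC number), the unit into which the authors' pipeline had merged overlapping transcripts. The column of gene names in the table stands in a different order from the loci and their values, and nothing else that was used ties locus numbers to genes. For this reason no gene is named, no function is given for a locus, no sequence is shown, and markers of heart muscle or of wound cells were not looked up. The value of a locus is its read count after scaling by the size factor of that library. It is not divided by locus length, so a level can be compared between libraries for the same locus, but between loci only as a count of reads. Where loci are called abundant or grouped by mean value below, reads are meant and not transcripts. A value of 1 was close to 1 read in all 8 libraries, since 1 read was worth between 0.988 and 1.26. The libraries held 24371179 to 26742999 reads on loci in non-injured apexes and 24717610 to 27949675 at 14 dpci, so depth did not separate the groups. Of 66128 loci, the 62594 with a value above 0 in at least 1 of the 20 libraries were tested.

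The libraries of a group were not equally alike. Over the 32070 loci whose mean value reached 10, the root mean square difference of log2(value + 1) between 14 dpci replicates 2, 3 and 4 was 0.63 to 0.73. Replicate 1 of 14 dpci stood 0.93 to 1.12 from these, and only 0.92 from non-injured replicate 1. The non-injured group was divided more strongly. Non-injured replicates 3 and 4 were 0.77 apart and lay 1.43 to 1.65 from the 14 dpci libraries. Non-injured replicates 1 and 2 were 1.05 apart and lay 0.92 to 1.25 from the 14 dpci libraries, while replicates 3 and 4 were 1.17 to 1.25 away from them. No batch, date or litter is given for the libraries, and what divides the non-injured group was not tested. Each change is therefore given against all 4 non-injured libraries and against each pair, replicates 1 and 2, and replicates 3 and 4. The pairs come from the values and are not groups of the study.

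**Figure D1:**
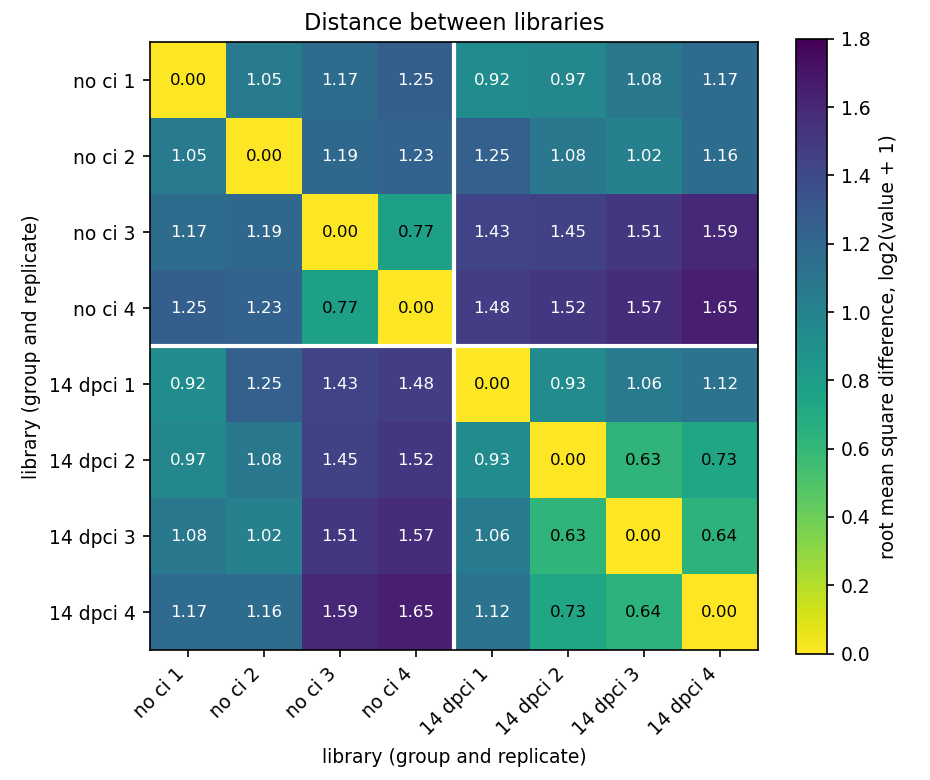
Root mean square difference of log2(value + 1) between each pair of the 8 libraries, over loci whose mean value reached 10; both axes list the libraries by group and replicate, and darker squares are larger differences. Non-injured (no ci) replicates 3 and 4 are farthest from the 14 dpci libraries (1.43 to 1.65), and 14 dpci replicates 2, 3 and 4 are closest to each other (0.63 to 0.73).

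How much of each library a few loci take up did not separate the groups. The 100 most abundant loci held 25.6% ± 2.08 of all values at 14 dpci and 27.1% ± 2.31 in non-injured apexes (SD, n = 4 libraries each; exact two-sided permutation test, p = 0.257, where the smallest p possible is 0.0286).

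Against all 4 non-injured libraries, 3679 loci were higher at 14 dpci (5.88% of those tested) and 4151 were lower (6.63%), together 7830 (12.5%; limma on log2(value + 1), Benjamini-Hochberg adjusted p under 0.05). Unadjusted, 17526 loci had a p under 0.05. These counts differed between the pairs of controls. Against replicates 3 and 4, 6154 loci were higher (9.83%) and 5985 lower (9.56%), together 12139 (19.4%). Against replicates 1 and 2, only 553 were higher (0.883%) and 554 lower (0.885%), together 1107 (1.77%). The changes that passed in the same direction against each of the pairs were 454 higher (0.725%) and 499 lower (0.797%), together 953 loci (1.52%), and are called held changes below. All 953 also passed against the 4 libraries together. This follows in large part from the choice, since the comparisons share the same libraries. Of the 3679 higher loci, 2639 (71.7%) passed against replicates 3 and 4 but not against replicates 1 and 2, 67 (1.82%) the other way round, and 519 (14.1%) against neither pair. Of the 4151 lower loci, 3137 (75.6%) passed against replicates 3 and 4 alone, 34 (0.819%) against replicates 1 and 2 alone, and 481 (11.6%) against neither. Whether the change differed between the pairs was not tested by locus. The held changes were also fewer in a model of only the 8 libraries (106 higher and 118 lower, against 1275 and 1770 for all 4 controls together) and with the replicate number as a block (260 and 291), and the held rises with limma-voom (261) and edgeR (269) on recovered reads. Single libraries moved the counts too. Without non-injured replicate 3, 1821 loci were higher and 2134 lower against the remaining 3, and without replicate 4 the counts were 1833 and 2185. The held changes were 114 higher and 111 lower without non-injured replicate 2, which leaves replicate 1 alone in its pair, and 910 higher and 811 lower without 14 dpci replicate 1. Without 14 dpci replicate 2, 3 or 4 they were 279, 252 and 281 higher, and 303, 331 and 321 lower, and the higher loci against all 4 fell to 2120 without replicate 3 and to 2132 without replicate 4 (2612 lower).

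All 7830 loci had fold changes of the same sign against each pair, whether or not they passed there. The log2 change against all 4 libraries is the mean of those against the pairs, so this follows in part from the choice. The 3225 higher loci that were not held had a median log2 fold change of 1.16 against replicates 1 and 2 and of 1.94 against replicates 3 and 4, and for the 3652 lower loci that were not held the medians were −1.17 and −1.82. With loci at 0 in a whole group set to the bound that 3 reads per library allow, these medians were 1.10 and 1.64, and −1.02 and −1.59. Most of these loci passed against replicates 3 and 4 alone. The smaller changes against replicates 1 and 2 thus follow in part from how the loci were chosen. The median over all loci tested was 0 against either pair. With limma, 0 loci passed in opposite directions against the pairs, with edgeR on recovered reads 0, and with limma-voom 1. At an unadjusted p under 0.05 there were 68, 40 and 85 such loci. The locus found with limma-voom was XLOC_027516, named here after its values were seen. Non-injured replicates 1 and 2 had 385 and 667, and replicates 3 and 4 had 0. The 14 dpci libraries had 173, 86.1, 211 and 139, below the former pair and above the latter. With limma its adjusted p was 0.0768 against replicates 1 and 2 and 2.69e-08 against replicates 3 and 4.

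**Figure D2:**
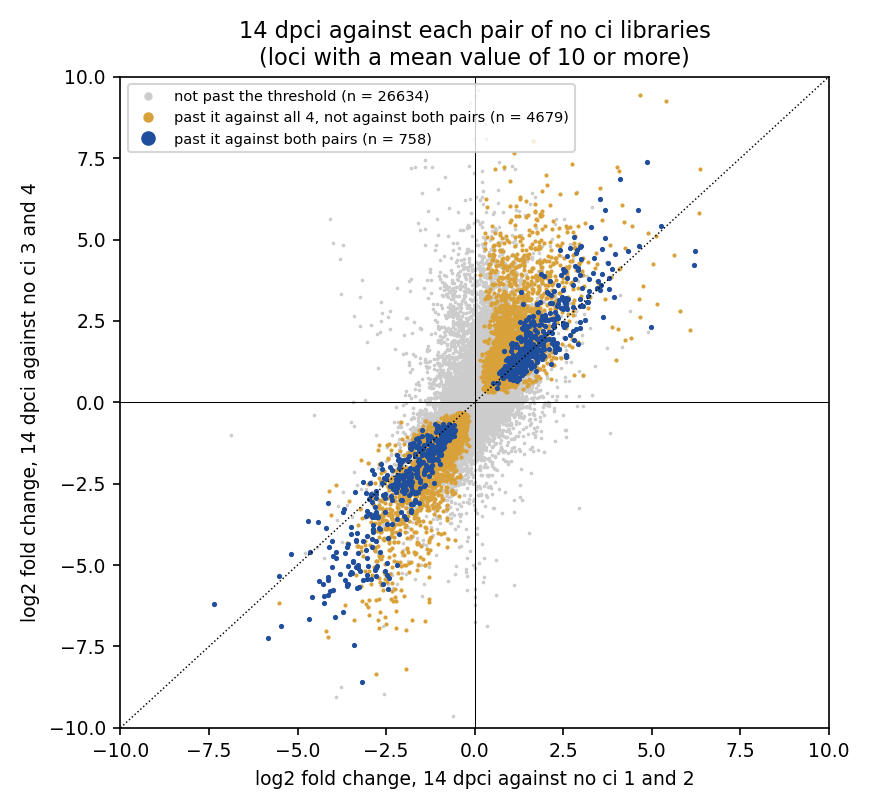
Log2 fold change at 14 dpci against non-injured (no ci) replicates 1 and 2 (horizontal) and against replicates 3 and 4 (vertical), 1 point per locus, for loci whose mean value reached 10; the dotted line marks equal change. The 758 loci past the threshold against both pairs (blue) and the 4679 past it against all 4 libraries but not against both pairs (orange) lie in the lower left and upper right, and the orange points spread further along the vertical axis. Both features follow in part from how these loci were chosen.

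The values of the 4 libraries at 14 dpci and the 4 non-injured libraries did not overlap at 3865 loci that were higher (6.17%) and 4198 that were lower (6.71%), together 8063 (12.9%). Of the held changes, 448 of 454 higher and 496 of 499 lower loci had no overlap. Since a held locus must pass against each of the pairs, this follows in large part from how these loci were chosen. The same count among loci that passed against all 4 libraries but were not held was 1917 of 3225 higher and 2269 of 3652 lower.

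The 454 held rises changed by a median of 1.998 on the log2 scale against all 4 non-injured libraries (quartiles 1.39 and 2.74; 1.86 with the 24 loci at 0 in every non-injured library at their bound), next to a median of 0 over all loci tested. The change was 4-fold or larger at 226 of them and 8-fold or larger at 74. They were spread over all levels, with a mean value under 10 at 83 loci, of 10 to 100 at 172, of 100 to 1000 at 147 and of 1000 or more at 52. Loci whose mean reached 100 made up 43.8% of the held rises and 25.6% of all loci tested. How readily the test passes a locus at each level was not examined. Together the held rises took 0.697% to 0.814% of the values in each non-injured library and 1.67% to 2.32% in each 14 dpci library. They were chosen for higher values in these 14 dpci libraries. The directions of this difference and of the median change thus follow from the choice. Within the 14 dpci group, replicate 1 had the lowest of the 4 values at 273 of the 454 loci, and replicates 2, 3 and 4 at 68, 45 and 68. Replicate 1 was thus most often the library nearest to the non-injured level.

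The 499 held falls had a median log2 fold change of −2.35 (quartiles −3.29 and −1.50; −2.18 with the 68 loci at 0 in every 14 dpci library at their bound), and the change was 4-fold or larger at 311 loci and 8-fold or larger at 163. Their mean value was under 10 at 112 loci, 10 to 100 at 193, 100 to 1000 at 108 and 1000 or more at 86. A mean of at least 100 was found for 38.9%. The held falls took 1.86% to 2.58% of the values in the non-injured libraries and 0.884% to 1.03% at 14 dpci. Here, too, the directions of this difference and of the median change follow from the choice. Of the non-injured libraries, replicate 1 had the lowest value at 264 of the 499 loci, replicate 2 at 126, and replicates 3 and 4 at 50 and 59. Replicate 1 of 14 dpci had the highest value of its group at 159 of the 431 loci where no libraries tied, against 85, 96 and 91 for replicates 2, 3 and 4. For the held rises, non-injured replicate 1 had the highest value of its group at 172 of the 430 loci where no libraries tied, against 107, 89 and 62 for replicates 2, 3 and 4. In both lists replicate 1 was thus, within each group, most often the library nearest to the other group. How often both were nearest at the same locus was not counted.

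The libraries of the earlier stages give the levels that came before 14 dpci. They did not enter the fold changes by which these loci were chosen, but they entered the estimate of spread behind the p-values. Fold changes at 1.5, 3 and 7 dpci share the 4 non-injured libraries with 14 dpci, and their medians are set side by side without a test. For the held rises the median log2 fold change at 1.5, 3, 7 and 14 dpci was 0.81, 1.64, 1.804 and 1.998, and with bounds for loci at 0 it was 0.77, 1.63, 1.72 and 1.86. The 5 group means were highest at 14 dpci for 183 of these loci, at 3 dpci for 159, at 7 dpci for 81, and at 1.5 dpci for the other 31. The held rises thus contain loci with a peak at 3 dpci as well as loci that were highest at the last stage. The lowest of the 5 group means lay in non-injured apexes for 345 loci and at 1.5 dpci for 87. For the held falls the medians were −0.45, −0.75, −1.37 and −2.35 in the same order, and with bounds −0.45, −0.75, −1.31 and −2.18. The group mean was lowest at 14 dpci for 356 of the 499 loci and at 7 dpci for 72. It was highest in non-injured apexes for 301 loci, and at 1.5 dpci for 123. Over all 62594 loci tested, the highest mean lay in non-injured apexes for 11499. It lay at 1.5, 3, 7 and 14 dpci for 17459, 13488, 8702 and 11446. The lowest lay in non-injured apexes for 15508, and at these stages for 12794, 12018, 9490 and 12784. The held loci were chosen for their 14 dpci values against non-injured apexes. How often either group had the highest or lowest mean is thus in part fixed by the choice. At 7 dpci against non-injured apexes, 393 of 454 held rises passed higher and 349 of 499 held falls lower (limma adjusted p under 0.05). Over all loci tested these were 4024 and 3412. Compared with 7 dpci directly, 14 held rises were higher at 14 dpci and 2 lower, and 35 held falls were lower and 0 higher. Over all loci tested 66 were higher and 187 lower. Most held loci with their highest or lowest mean at 14 dpci thus did not pass against 7 dpci.

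**Figure D3:**
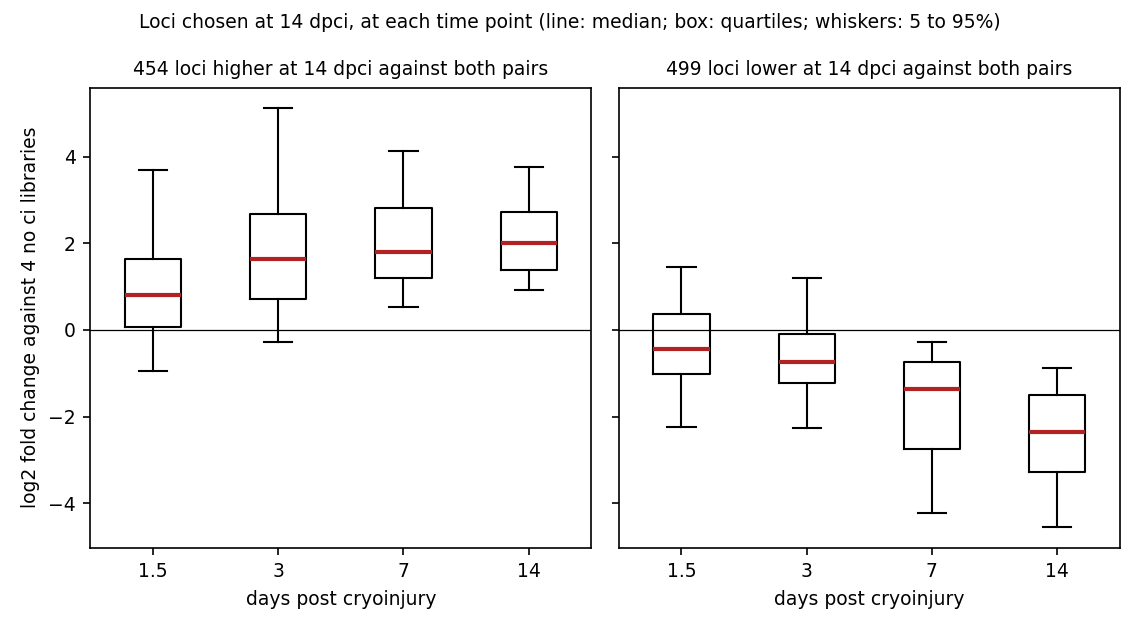
Log2 fold change against the 4 non-injured (no ci) libraries at 1.5, 3, 7 and 14 dpci for the 454 loci that were higher (left) and the 499 that were lower (right) at 14 dpci against both pairs; the red line is the median, the box the quartiles, and the whiskers span 5 to 95% of loci. The medians of the falls go from −0.45 at 1.5 dpci to −2.35 at 14 dpci, and those of the rises from 0.81 to 1.998; the 14 dpci boxes show the values by which the loci were chosen.

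Among held rises whose mean value reached 100 and no overlap between the groups, the 6 with the largest log2 fold change are given by library. The lack of overlap at these 6 loci is thus fixed by the choice. XLOC_034482 had values of 35.4, 0.988, 0 and 1.20 in non-injured replicates 1 to 4, and of 229, 94.2, 377 and 465 at 14 dpci. It was nearly absent from 3 non-injured libraries, and replicate 1 alone had more than 1 read. The difference on the log2 scale was 6.13 (standard error 0.99, limma adjusted p = 0.000964). It was at most 0.917 in every library at 3 dpci, against 126 to 781 at 1.5 dpci and 93.1 to 1800.0 at 7 dpci, so that its high levels were interrupted at 3 dpci. Its change did not hold against both pairs without non-injured replicate 2, or without 14 dpci replicate 3 or 4. Nor did it hold with a pseudocount of 0.1, in the model of the 8 libraries, or with limma-voom or edgeR.

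XLOC_028133 and XLOC_031825 rose early and came part of the way back. XLOC_028133 had 105, 12.8, 27.7 and 39.5 in non-injured apexes and 666, 2212, 2087 and 1504 at 14 dpci. The log2 difference was 5.34 (standard error 0.48, limma adjusted p = 6.6e-06), and the mean at 3 dpci was 11903 ± 4668 (SD, n = 4). XLOC_031825 had 352, 167, 206 and 45.5 in non-injured apexes and 2276, 7801, 9680.1 and 7216 at 14 dpci. Here too 14 dpci replicate 1 was the lowest of its group and still above all non-injured libraries (log2 fold change 5.26, standard error 0.50, limma adjusted p = 1.73e-05). The means of XLOC_031825 at 1.5, 3, 7 and 14 dpci were 16514 ± 2599, 45926 ± 15999.6, 13249 ± 1363 and 6743 ± 3158 (SD, n = 4 each). Both loci held against the pairs in all 8 fits that each left out 1 library, but not in the model of the 8 libraries.

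XLOC_032159 rose between 1.5 and 3 dpci. It had 15.2, 0, 18.8 and 11.97 in non-injured apexes and 174, 389, 379.5 and 299 at 14 dpci (log2 fold change 5.21, standard error 0.78, limma adjusted p = 0.000551), and it held in all 8 fits without 1 library and under all 11 other alternatives. Its values were 5.48 to 43.6 at 1.5 dpci, 215 to 907 at 3 dpci and 236 to 353 at 7 dpci. The levels at 7 and 14 dpci overlapped.

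XLOC_060645 and XLOC_035319 were raised at the late stages. XLOC_060645 had 69.5, 6.91, 3.32 and 5.98 in non-injured apexes and 128, 214, 277 and 353 at 14 dpci (log2 fold change 4.32, standard error 0.58, limma adjusted p = 0.000125). Its mean was 3.67 ± 0.37 at 1.5 dpci, 3.76 ± 1.35 at 3 dpci and 170 ± 56.6 at 7 dpci (SD, n = 4 each). The early libraries lay within the range of non-injured replicates 2 to 4 or below it, and all late libraries lay above every non-injured library. XLOC_035319 had 89.7, 21.7, 27.7 and 34.7 in non-injured apexes and 186, 621, 1059.5 and 1177 at 14 dpci (log2 fold change 4.02, standard error 0.73, limma adjusted p = 0.00224). Replicate 1 of 14 dpci was again the lowest. The change of XLOC_035319 was close to the threshold against replicates 1 and 2 (limma adjusted p = 0.0471) and held in 2 of the 8 fits without 1 library, those without non-injured replicate 1 or 14 dpci replicate 1. It was also lost with quantile scaling, in the model of the 8 libraries, and with limma-voom and edgeR. XLOC_060645 held in 7 of these fits, with losses without non-injured replicate 2 and in the model of the 8 libraries.

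The 6 largest falls under the same conditions included a locus that was not detected at 14 dpci. XLOC_047408 had 49.3, 534, 5.54 and 828 in non-injured replicates 1 to 4, and 0 in all 4 libraries at 14 dpci and in all 4 at 7 dpci. The non-injured values spread widely across both pairs. Set against a floor of 3 reads per library, the mean was at least 112-fold lower at 14 dpci (limma adjusted p = 0.000307). XLOC_047408 stood at 527 ± 209 at 1.5 dpci and at 7.76 ± 3.71 at 3 dpci (SD, n = 4 each), so that it fell to near 0 between these stages. It held in 7 of the 8 fits without 1 library, with a loss without non-injured replicate 2, and did not hold in the model of the 8 libraries or with edgeR.

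XLOC_013269 had 13.9, 6.91, 515 and 415 in non-injured apexes, so that replicates 3 and 4 were far above replicates 1 and 2. At 14 dpci 1 read was found in replicate 2 and none in the other libraries, and at 7 dpci all libraries were at 0. The ratio of read rates, 830 reads in the non-injured libraries against 1 at 14 dpci with each pooled and scaled by size factor, was 894 (95% exact interval 160.0 to 35350.2, counting error only), and the limma adjusted p was 0.00172. At 1.5 and 3 dpci its values were 107 to 735. XLOC_013269 did not hold with a pseudocount of 5, limma-voom or edgeR. Its log2 fold change depended strongly on the controls, with −3.19 against replicates 1 and 2 and −8.60 against replicates 3 and 4.

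The other 4 of these falls were still detected in every 14 dpci library. XLOC_023051 had 37.9, 214, 433 and 501 in non-injured apexes and 14.3, 9.12, 9.88 and 16.4 at 14 dpci. Non-injured replicate 1 was the lowest of its group and still above all 14 dpci libraries (log2 fold change −3.98, standard error 0.58, limma adjusted p = 0.000325). XLOC_010393 had 197, 185, 1060.3 and 811, and then 34.6, 37.5, 27.7 and 15.3 (log2 fold change −3.90, standard error 0.66, limma adjusted p = 0.00135). XLOC_023865 had 187, 99.7, 443 and 149.6, and then 31.0, 10.1, 22.7 and 3.07 (log2 fold change −3.79, standard error 0.68, limma adjusted p = 0.00172). At these loci, too, the highest 14 dpci library was below the lowest non-injured library, as the choice required. XLOC_017248 had 69.5, 54.3, 479.7 and 388, and then 7.15, 14.2, 15.8 and 15.3 (log2 fold change −3.60, standard error 0.58, limma adjusted p = 0.000791). At XLOC_010393 and XLOC_017248 non-injured replicates 3 and 4 were several times as high as replicates 1 and 2. XLOC_010393 and XLOC_023865 passed narrowly against replicates 1 and 2 (limma adjusted p = 0.0447 and 0.0494) and held in 1 and 2 of the 8 fits without 1 library. XLOC_010393 held without 14 dpci replicate 1, and XLOC_023865 without non-injured replicate 3 or 14 dpci replicate 1. XLOC_010393 was also lost with quantile scaling, the replicate block and limma-voom, and XLOC_023865 with TMM scaling, the model of the 8 libraries, the replicate block, limma-voom and edgeR. XLOC_023051 was lost without non-injured replicate 2, XLOC_013269 without replicate 1, and XLOC_017248 without either. XLOC_023051 was also lost in the model of the 8 libraries and XLOC_017248 with limma-voom.

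**Figure D4:**
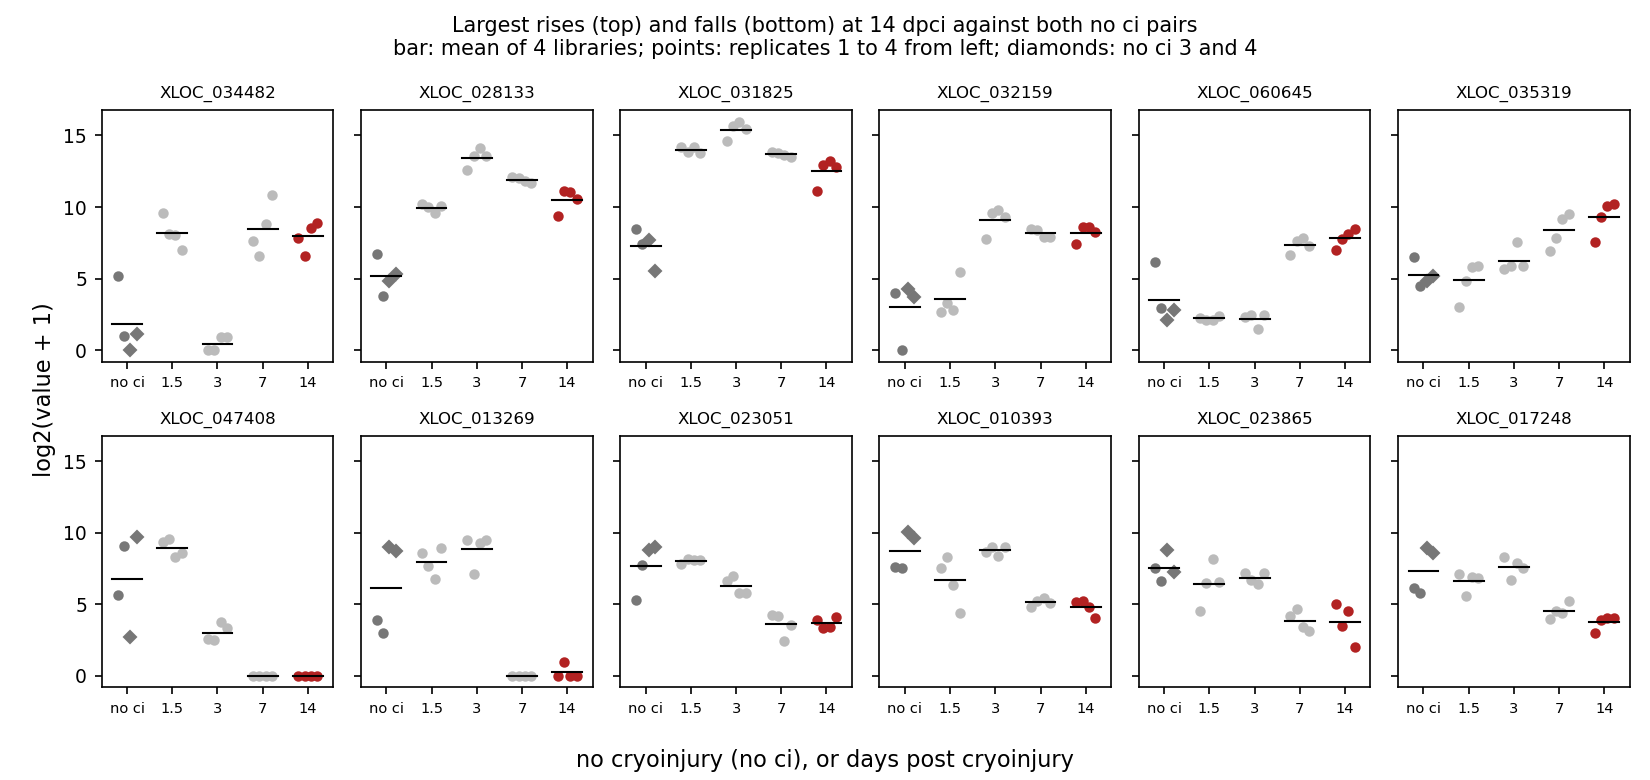
Value of each library as log2(value + 1) for the 6 largest rises (top) and 6 largest falls (bottom) at 14 dpci that held against both pairs, in non-injured apexes (no ci) and at 1.5, 3, 7 and 14 dpci; points are replicates 1 to 4 from left, diamonds no ci replicates 3 and 4, and bars the mean of 4 libraries. In all 12 panels the 14 dpci points (red) lie wholly above or wholly below the no ci points, because only loci without overlap were chosen. XLOC_047408 is at 0 at 7 and 14 dpci.

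The 3 most abundant held rises had log2 fold changes from 0.98 to 2.28, next to a median of 1.998 over all held rises. The rises given above had been chosen for the largest fold, so the sizes are not compared with theirs. XLOC_061463 had 43762, 42078, 28589 and 45044 in non-injured apexes and 75825, 104841, 65078 and 69595 at 14 dpci. All 14 dpci libraries were higher, by 0.98 on the log2 scale (standard error 0.16, limma adjusted p = 0.000550). The earlier stages had means of 50103 ± 7646 at 1.5 dpci, 29449 ± 4297 at 3 dpci and 53626 ± 4219 at 7 dpci (SD, n = 4 each), all below 14 dpci. XLOC_001648 had 12063 to 21541 in non-injured apexes and 33911 to 61173 at 14 dpci (log2 fold change 1.49, standard error 0.27, limma adjusted p = 0.00185), after higher means at 3 dpci (83281 ± 25153) and 7 dpci (76112 ± 24100.3). XLOC_043388 had 4352 to 7396 in non-injured apexes and 13230.0, 42168, 30716 and 41051 at 14 dpci (log2 fold change 2.28, standard error 0.31, limma adjusted p = 0.000212). In contrast to XLOC_001648, it was highest at 14 dpci, with means of 3289 ± 1163 at 1.5 dpci, 4398 ± 672 at 3 dpci and 15016 ± 3034 at 7 dpci. Neither XLOC_061463 nor XLOC_043388 passed at 14 dpci against 7 dpci (limma adjusted p = 0.144 and 0.196). XLOC_061463 and XLOC_001648 each held in 5 of the 8 fits without 1 library, and XLOC_043388 in 7, with a loss without non-injured replicate 2 at all 3 loci. XLOC_061463 was also lost without non-injured replicate 1 or 14 dpci replicate 2, and XLOC_001648 without non-injured replicate 3 or 4. In the model of the 8 libraries XLOC_061463 and XLOC_043388 did not hold, and XLOC_061463 did not with edgeR or where a fold of at least 2 was asked.

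The most abundant held falls were already low in the first stages. XLOC_031378 had 93789, 80188, 109955 and 125604 in non-injured apexes and 38387, 55535, 44997 and 45492 at 14 dpci. The groups did not overlap, and the log2 fold change was −1.14 (standard error 0.18, limma adjusted p = 0.000550). Its mean was lowest at 1.5 dpci (34145 ± 3241) and at 3 dpci (35247 ± 6813; SD, n = 4 each). XLOC_012659 had 73289, 41593, 134584 and 110477 in non-injured apexes, again with replicates 3 and 4 above replicates 1 and 2, and 16841 to 30908 at 14 dpci (log2 fold change −1.97, standard error 0.30, limma adjusted p = 0.000584). Its means at 1.5, 3 and 7 dpci, between 23526 and 28576, were near that at 14 dpci (21543 ± 6348). XLOC_053286 had 13939 to 19042 in non-injured apexes and 9071 to 12649 at 14 dpci (log2 fold change −0.71, standard error 0.13, limma adjusted p = 0.00133), and was lower at 1.5 and 3 dpci, with means of 6222 ± 692 and 5671 ± 543. It passed narrowly against replicates 1 and 2 (limma adjusted p = 0.0429) and held in 1 of the 8 fits without 1 library, that without 14 dpci replicate 1. It was lost under 7 of the 11 other alternatives: TMM scaling, a pseudocount of 5, the model of the 8 libraries, the replicate block, a fold of at least 2, limma-voom and edgeR. XLOC_031378 held in 4 of these fits, with a loss without non-injured replicate 1 or 2 or 14 dpci replicate 3 or 4, and XLOC_012659 in 7, with a loss without non-injured replicate 1. XLOC_031378 was also lost with quantile scaling, the replicate block and a fold of at least 2, and XLOC_012659 in the model of the 8 libraries.

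The largest changes that passed against all 4 non-injured libraries without holding against both pairs rested on single libraries in several cases. XLOC_023503 was at 0 in 3 non-injured libraries and at 203 in replicate 2, and had 894, 761, 403 and 500.2 at 14 dpci. The groups did not overlap, yet the limma adjusted p was 0.0107 against all 4, 0.194 against replicates 1 and 2, and 0.00395 against replicates 3 and 4. XLOC_008839 had 825 in non-injured replicate 1 and at most 1.20 in the other 3 libraries, and 1445, 1411, 548 and 1012 at 14 dpci (limma adjusted p = 0.0148). The groups overlapped through that replicate. XLOC_051927 had at most 1.98 in all non-injured libraries and 3.58, 754, 505 and 1229 at 14 dpci (limma adjusted p = 0.0290), with replicate 1 near the non-injured level. It held against both pairs without that replicate. All 3 loci missed the threshold against the 4 libraries together in the model of the 8 libraries, XLOC_023503 and XLOC_008839 with edgeR, and XLOC_051927 with limma-voom and without 14 dpci replicate 2, 3 or 4. Without non-injured replicate 3 or 4, XLOC_008839 and XLOC_051927 missed it as well.

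Among the falls of this kind, XLOC_044128 had 364 to 1129.9 in non-injured apexes, and was at 0 in 14 dpci replicates 1 and 4 but at 185 and 170.0 in replicates 2 and 3 (limma adjusted p = 0.0427). The 14 dpci libraries thus fell into a pair with the transcript and a pair without it. The change missed the threshold with the replicate block (limma adjusted p = 0.0612), limma-voom (0.0636), edgeR (0.137) and the model of the 8 libraries (0.143), within a range of 0.0175 to 0.143 over all its alternatives, and without non-injured replicate 2, 3 or 4 or 14 dpci replicate 1 or 4. XLOC_034328 had 5.05 in non-injured replicate 1, against 790.0, 236 and 1039 in replicates 2 to 4, and 4.77, 5.07, 4.94 and 0 at 14 dpci (limma adjusted p = 0.00416). Non-injured replicate 1 alone matched the 14 dpci level. XLOC_058069 was at 0 in non-injured replicate 1 and at 70.1, 371 and 425 in replicates 2 to 4, and had 1 read in total at 14 dpci (limma adjusted p = 0.00884; ratio of pooled and scaled read rates, from 761 reads against 1, of 820 with a 95% exact interval of 147 to 32415, counting error only). Both XLOC_034328 and XLOC_058069 held against the pairs once non-injured replicate 1 was left out, as did XLOC_008839. Against all 4 libraries together, XLOC_034328 and XLOC_058069 missed the threshold in the model of the 8 libraries and with limma-voom. With edgeR on recovered reads both passed against all 4 and also held against both pairs.

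Some loci were detected in only 1 of the groups. At 117 of the 62594 loci tested all 4 non-injured libraries were at 0 and all 4 libraries at 14 dpci above 0. These had low levels, with a mean at 14 dpci of 10 or more at only 6 of them and a median of 3.61. Of the 117, 87 passed against all 4 non-injured libraries and 24 were held, but a locus with this pattern had to differ, and the count supports nothing further. All 4 libraries were above 0 at 34 of these loci at 1.5 dpci, at 38 at 3 dpci and at 44 at 7 dpci, and all 4 were at 0 at 23, 22 and 3 loci. These 117 loci were thus rarely absent from the 7 dpci group as a whole.

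The 2 such loci with the highest mean at 14 dpci differed in their replicates. XLOC_036363 had 1.19, 121.6, 88.0 and 58.3 at 14 dpci, with a single read in replicate 1, and was at least 19.7-fold higher than a floor of 3 reads per library allows for non-injured apexes (limma adjusted p = 0.0101). It did not hold against both pairs, but did so without 14 dpci replicate 1. XLOC_006489 had 16.7, 13.2, 10.9 and 15.3 at 14 dpci and 13.4 to 27.4 at 7 dpci, and was at 0 in all libraries at 1.5 and 3 dpci and without injury. It was at least 4.10-fold higher than the floor (limma adjusted p = 1.58e-06) and held in all 8 fits without 1 library.

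The opposite pattern was more frequent. At 294 of the 62594 loci tested all 4 libraries at 14 dpci were at 0 and all 4 non-injured libraries above 0. Their median non-injured mean was 5.08, with a mean of 10 or more at 56 loci. Of these, 260 passed against all 4 non-injured libraries and 68 were held, but here too a locus with this pattern had to differ, and the counts support nothing further. At 1.5 dpci all 4 libraries were above 0 at 214 of the 294 loci and at 3 dpci at 195, but at 7 dpci at only 19, and all 4 were at 0 at 3, 6 and 110 loci. Most of these 294 loci were therefore still detected throughout the 3 dpci group. Beside XLOC_047408, the locus with the highest non-injured mean was XLOC_017488, with 1.26, 135, 159.5 and 134 in non-injured apexes and at least 34-fold lower at 14 dpci on the same floor (limma adjusted p = 0.00289). Non-injured replicate 1 held a single read, and the locus did not hold against both pairs, but did so without that library. Its values were 109.8 to 268 at 1.5 dpci, 0.884 to 52.3 at 3 dpci, and no library had more than 1 read at 7 dpci. With a pseudocount of 0.1, XLOC_017488 also held against both pairs.

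**Figure D5:**
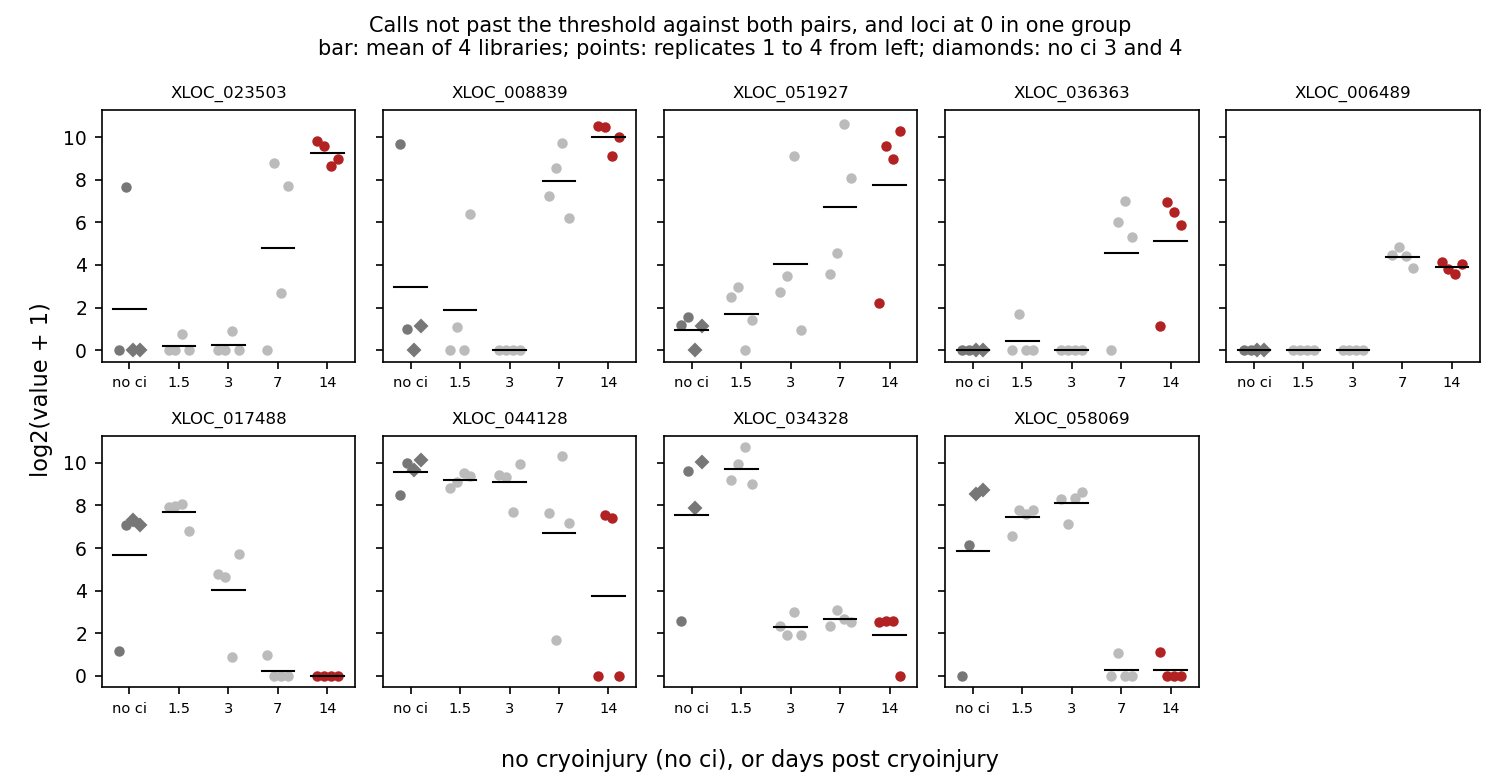
Value of each library as log2(value + 1) for the largest rises and falls that passed against the 4 non-injured (no ci) libraries but not against both pairs, and for loci at 0 in 1 of the groups; axes, points, diamonds and bars are as for the loci that held. Single libraries far from the rest of their group, such as no ci replicate 2 at XLOC_023503 (203, others 0) or 14 dpci replicate 1 at XLOC_051927 (3.58, others 505 to 1229), stand out.

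Held changes often stood next to each other in the numbering of the loci, which follows the assembly. Of the 454 held rises, 106 (23.3%) had a held rise at an adjacent number, in 45 runs, where held rises were 0.725% of all loci tested. Of the 499 held falls, 115 (23.0%) had a held fall next to them, in 47 runs, where held falls were 0.797%. A locus can have a neighbour on either side, so these shares of all loci are lower than the like baseline. In each list 4 loci stood next to a held change in the opposite direction. With held rises and falls at such small shares few such neighbours would be met in any case, so nothing is read from this count. Loci at adjacent numbers were not taken as independent of each other. For all calls against the 4 non-injured libraries, the counts with a call in the same direction next to them were 1434 of 3679 (39.0%) and 1933 of 4151 (46.6%). Such calls were 5.88% and 6.63% of all loci tested, so these counts are not set against those of the held changes.

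The longest runs, chosen after their values were seen, held 5 loci each. From XLOC_021245 to XLOC_021249 all 5 loci rose, with log2 fold changes of 1.53 to 2.29. Across these loci the non-injured values lay between 5.98 and 42.1 and those at 14 dpci between 25.6 and 164, and no locus had overlapping groups. From XLOC_027701 to XLOC_027705 all 5 loci fell, from values of 3.79 to 130.7 in non-injured apexes to 0 to 3.58 at 14 dpci. Every locus of this run was almost undetected in the 14 dpci libraries, and the fitted log2 fold changes of −4.55 to −4.16 depend on the pseudocount of 1.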

How the data were processed

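RNA was extracted from pooled ventricular apexes, and a service provider prepared TruSeq stranded total RNA libraries. The authors had reads aligned to GRCz10 with Ensembl annotation 90 and processed with Cufflinks, Cuffmerge and Cuffdiff (versions are not given in the sources used here). The deposited values are a signal: read counts per locus divided by a size factor for each library. The paper's results also name 21 dpci for the RNA sequencing, but no library of the series carries that label, so that stage was not analysed here. Columns were matched to samples by library name, and 0 columns were left without a sample. The gene name column, filled in 42278 of 66128 rows, was not used. The unit differs from the FPKM named in the paper, and no length was available to convert it.

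Dividing values by that of 1 read gave whole reads, within 0.1 read, for 100% of values up to 20 reads in the 8 libraries. Recovered reads of 19 libraries (all but 7 dpci replicate 1) served edgeR 4.0.16 and limma-voom as alternatives. On them edgeR called 2555 loci higher and 3786 lower, and 773 against both pairs. The main test used limma 3.58.1 in R 4.3.3 (lmFit, eBayes with trend and robust options, statmod 1.5.0) on log2(value + 1). All 20 libraries entered in 5 groups, or in 6 with the non-injured pairs apart, with Benjamini-Hochberg adjustment over 62594 loci and a threshold of 0.05. Fold changes on this scale understate changes of low loci. The test was checked on simulated data. Library measures were compared by exact permutation tests (scipy 1.17.1). The samples are separate tubes of pooled apexes, so p-values rest on the spread between pools within groups, shared over all groups fitted. In the fit with the non-injured pairs apart, the difference between those pairs is not part of that spread. Replicates differed beyond sampling noise (chi-square per degree of freedom 12.4 to 70.0), and none was counted as a duplicate. Intervals and floors cover counting error only.

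The libraries, the pairs and the rules for loci were chosen with earlier results of these data known. By these rules the text names the 6 largest rises and 6 largest falls among held changes with a mean of at least 100 and no overlap. It also names the 3 most abundant held changes in each direction, the 3 largest changes in each direction with a mean of at least 100 that did not hold, and 2 loci detected in only 1 group in each direction. Loci passing in opposite directions against the pairs would have been named, but limma gave 0. The alternatives were TMM and quantile scaling, pseudocounts of 0.1 and 5, a filter (4 or more libraries at 10 or above), a model of the 8 libraries, a replicate block, a fold of at least 2, no overlap between the groups, limma-voom, edgeR, and leaving out each library.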

Additional observations from a re-analysis of the deposited data

Results flagged for a closer look

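In 10 of 60 groups of 4 libraries examined for the named loci and for 3 library measures, a single library lay far from the other 3, measured as its gap to the nearest library over the range of the group on the log2(value + 1) scale. For groups of normal values about 1 in 20 would show such a gap, here 3. The loci were named by rules that used these values, so the 10 cannot be weighed against that 3. The ratio was 0.858 for non-injured replicate 2 at XLOC_032159, where it was at 0, and 0.850 for non-injured replicate 3 at XLOC_061463, the lowest of its group. Non-injured replicate 1 stood apart at XLOC_008839 (0.883, high) and at XLOC_017488 (0.959, low), and non-injured replicate 2 at XLOC_023503 (1, with the others at 0). At 14 dpci, replicate 1 was low at XLOC_017248 (0.859) and at XLOC_051927 (0.841), and alone above 0 at XLOC_058069 (1). Replicate 2 was alone above 0, with a single read, at XLOC_013269 (1), and replicate 4 was alone at 0 at XLOC_034328 (0.972). What sets these libraries apart at these loci was not tested.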

How the results depend on the processing

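The counts against all 4 non-injured libraries stayed within 1.5 times under TMM and quantile scaling, a minimum value, both pseudocounts, a fold of at least 2, limma-voom and edgeR. The model of the 8 libraries gave 1275 higher and 1770 lower loci, and 106 and 118 against both pairs. It has fewer residual degrees of freedom and takes the spread from these groups alone, and why it gave fewer was not tested. Held rises were also fewer with limma-voom (261) and edgeR (269). Of the 953 held changes, 931 were also held with TMM scaling, 874 with quantile scaling, 854 and 734 with pseudocounts of 0.1 and 5, 633 with limma-voom and 683 with edgeR. Over the fits that each left out 1 library, the counts ranged from 1821 to 4937 higher and 2134 to 5372 lower against all, and from 114 to 910 higher and 111 to 811 lower against both pairs. Where 1 non-injured library of a pair is left out, the lone library is assumed to vary like the other groups. The difference in the share of the 100 most abundant loci ranged from −2.55 to −0.698 percentage points in these fits. The same replicate numbers did not deviate together (correlations of 0.13, −0.03, −0.11 and −0.09). The correlations largest in size were between different numbers, −0.35 and 0.35 for non-injured replicate 2 with 14 dpci replicates 1 and 3. What lies behind them was not tested. With the replicate block, 3288 loci were higher and 3784 lower, and 260 and 291 against both pairs. For the named loci, 433 values against all 4 libraries kept their direction and side of the threshold and 26 kept the direction but not the threshold, all at XLOC_023503, XLOC_008839, XLOC_051927, XLOC_044128, XLOC_034328 and XLOC_058069. The cause of these changes was not tested. Single reads limit what can be said of loci with values of a few reads.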
